A study of Mus musculus with 8 samples.

Results

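The genes described here are 41 cilium and cystic disease genes among the 31228 genes of the expression table. They were picked by symbol, with their levels in these libraries already known, and all 41 were found. By role, 30 belong to the primary cilium or to cystic duct disease, 6 to the axoneme of motile cilia, and 5 encode regulators of ciliary genes. The deposited annotation places 31 of the 41 at a cilium, a term carried by 454 genes in all.

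The study asked how alike the extrahepatic bile duct and the pancreatic duct are, as epithelium and as organoids grown from it. Both ducts came from C57BL/6 mice, were dissected, minced and digested with collagenase, and gave 1 epithelium library each, made by putting the digested tissue straight into Trizol. Each duct also gave 3 organoid libraries, from cultures grown in Matrigel for 3 to 4 passages with EGF, R-Spondin-1, Noggin, FGF10, N-acetylcysteine and nicotinamide, and at first with Wnt3A and the ROCK inhibitor Y27632. The labels give neither the age of the mice nor whether the organoid replicates came from separate animals, so p-values measure only the spread between these samples, which may be technical. The labels name no mutation or transgene in any group.

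A primary cilium is a single, immotile projection of the cell surface that most duct cells carry into the lumen, where it senses flow and dissolved signals. It is built and maintained by intraflagellar transport, in which protein trains (complexes A and B) are moved along the axoneme by kinesin-2 and dynein-2 motors. A gated transition zone at its base controls entry, and the BBSome moves membrane proteins out. Loss of function of several of these genes gives cysts of kidney, liver and pancreatic ducts. Motile cilia share this core but add dynein arms and radial spokes, and multiciliated cells that carry them switch on a programme led by Gmnc, Mcidas and Foxj1. RFX factors regulate genes of both kinds through a DNA element called the X-box.

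The X-box was searched as the letters GTNNCC and GGNAAC with any 2 bases between them, on both strands, in windows of 300 bases reaching from 250 bases before to 50 bases after each gene's start. RefSeq windows (build GRCm38.p6) were matched for 33 of the 41 genes. Of these, 6 (18.2%) held the letters, against 425 of 32851 windows of all genes (1.29%). All 6 were primary cilium genes (6 of 25, 24%), and none of the 4 motile axoneme or the 4 regulator genes with a window held a match. The shorter half-site GTTGCC, which can lie inside the X-box, was present in 17 of the 33 (51.5%) and in 12.5% of all windows. The windows of the 33 genes also differed in base composition, with a median GC content of 58.3% against 52.7% and 19 CG pairs against 7. A match is a run of letters and not a measured binding site.

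The 4 matches that lie upstream of their gene's start are shown, since they place the element in genes of the transport train, the transition zone and the BBSome. Each is given on the gene's strand, cut where any annotated exon begins, with the element in capitals. The Ift57 element fits the letters on the other strand only. The element of Bbs7 (chr3:36613478-36613540, minus strand) begins 121 bases before the RefSeq start, that of Nphp4 (chr4:152477892-152477954, plus strand) 231 bases, that of Mks1 (chr11:87853161-87853214, plus strand) 24 bases and that of Ift57 (chr16:49699177-49699232, plus strand) 87 bases. In the table, Bbs7 and Ift57 begin further upstream, so their elements lie nearer to the start given there. The Nphp4 window lies inside the gene's span in the table, which begins further upstream, in a stretch with no annotated exon.
Bbs7: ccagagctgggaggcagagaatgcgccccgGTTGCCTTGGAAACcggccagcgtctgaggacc
Nphp4: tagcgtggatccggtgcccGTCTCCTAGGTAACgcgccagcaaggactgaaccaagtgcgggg
Mks1: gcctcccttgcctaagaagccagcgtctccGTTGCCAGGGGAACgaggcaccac
Ift57: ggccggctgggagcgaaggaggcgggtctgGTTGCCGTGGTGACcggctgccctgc
The other 2 matches, in Bbs4 and Bbs1, touch the start or lie after it.

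Levels are FPKM, reads scaled to exon length and to library size, which can be compared between genes. They were scaled between libraries by a trimmed mean of log ratios. The libraries held an implied 12876468 to 20828214 reads, and mitochondrial genes took 24.9% and 18.8% of FPKM in the bile and pancreatic duct epithelia and 5.43% to 7.29% in organoids. The epithelium libraries also held much RNA of other cells. The 10 acinar markers summed to 17986 and 36515 scaled FPKM in bile and pancreatic duct epithelium and to at most 8.43 in any organoid, where 5 of them (Cpa1, Pnlip, Amy2a2, Ptf1a and Cpb1) were listed at 0. The 8 fibroblast markers summed to 1892 and 1976 against at most 2.50, the 7 smooth muscle markers to 2450 and 4212 against at most 1.65, and the 7 endothelial markers to 401 and 692 against at most 1.02. The sum of the 12 duct markers went the other way, from 3357 and 810 to between 5410 and 11410, with 7 of the 12 counted as higher in the bile duct and all 12 in the pancreatic duct. So did that of the 10 markers of proliferating cells, from 41.5 and 18.2 to between 160 and 358. In such bulk samples, fewer cells of a type and less RNA per cell cannot be told apart. The part of these cell mixtures in the differences from epithelium to organoid was not tested.

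A change from epithelium to organoid is given as the log2 of the organoid mean plus 1 minus the log2 of the epithelium plus 1, which understates the change of weakly expressed genes. With 1 epithelium library per organ no p-value was computed. A gene was counted as higher or lower at a 2-fold difference with all 3 organoids on that side. By this rule 2 of 35 measurable genes of the list were higher in bile duct organoids (Bicc1 and Rsph1) and 2 were lower (Pkd1 and Bbs2). Over all genes, 38.9% of 15422 were counted in that organ, 12.9% higher and 25.9% lower. In the pancreatic duct 3 of 35 were higher (Bicc1, Foxj1 and Rsph1) and 1 was lower (Pkd1), against 40.4% of 15207 genes, 15.4% higher and 25% lower. With a pseudocount of 0.1, 9 of the 35 were counted in each organ, against 46.1% and 47.8% of all genes, and with median-of-ratios scaling 2 were higher and 5 lower in the pancreatic duct. Bicc1 and Rsph1 were higher in both organs and Pkd1 was lower in both, against 10.7% and 20% of all genes. Counted in neither organ were 36 of the 41, but 6 of these were not measurable in either organ. The share of all genes counted in neither was not computed. Since the list was drawn up with these levels known, the counts describe it and were not tested. Among genes with a mean of 1 to 10 scaled FPKM over the 8 libraries, which holds 28 of the list, 3 of the 28 were counted in each organ, against 36% and 36.8% of all genes in that range.

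**Figure D1:**
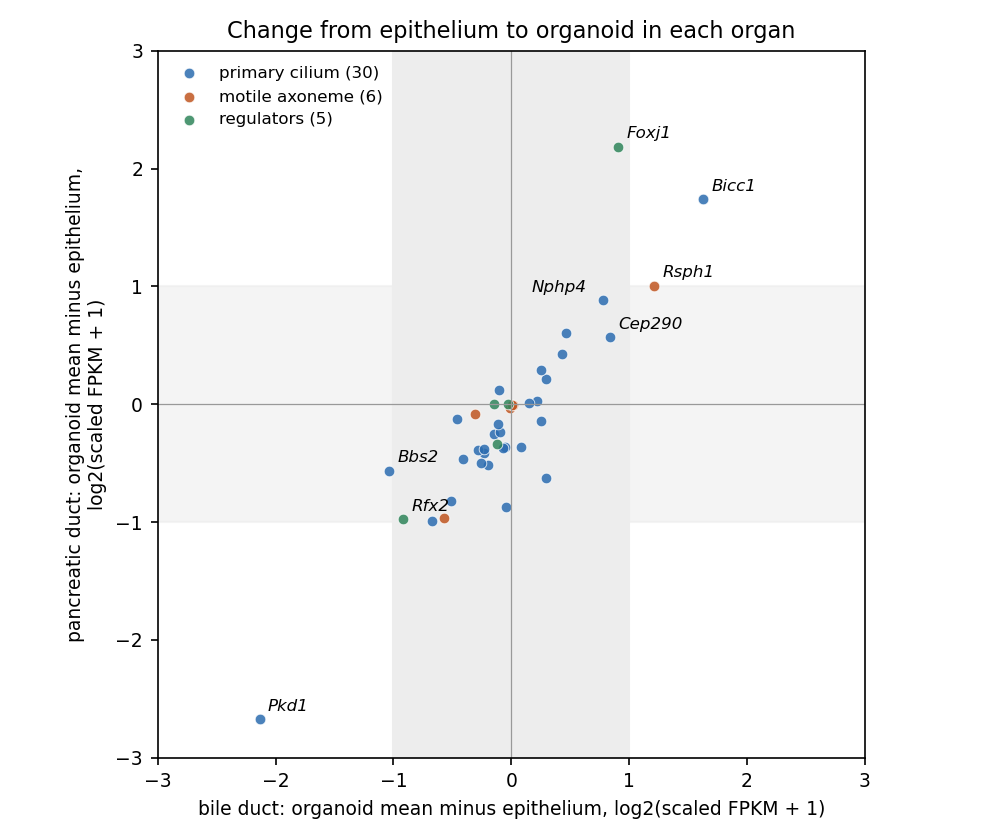
Change of each of the 41 genes from epithelium to organoid in the bile duct (horizontal axis) and in the pancreatic duct (vertical axis), both as differences of log2(scaled FPKM + 1), with less than 2-fold shaded and points coloured by kind of gene. Most genes crowd near 0 in both organs, Bicc1 and Foxj1 lie to the upper right and Pkd1 to the lower left. When scaled to epithelial reference genes, Bicc1, Foxj1 and Rsph1 change sign in the pancreatic duct, as do genes not counted there such as Nphp4 and Cep290.

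The direction of some of these changes depends on how the libraries are put on a common scale. When libraries were instead scaled to 8 epithelial reference genes (Epcam, Cdh1, Krt8, Krt18, Cldn7, Esrp1, Esrp2 and Grhl2), the median of all genes moved from -0.07 to -1.30 in the bile duct and from -0.07 to -2.57 in the pancreatic duct. Epcam, Cdh1, Krt8, Krt18 and Cldn7 are also among the duct markers above, whose sum was higher in organoids. On the reference scale 25 members were lower in bile duct organoids (67.2% of all genes counted) and 34 in pancreatic duct organoids (93.2%). Ratios within a library, of a gene to another gene or to a sum of genes, are free of this choice and are given below for Bicc1, Pkd1, Foxj1 and Rsph1.

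Primary cilium genes were expressed in every library. Their median scaled FPKM was 3.25 in the epithelium of the bile duct and 4.18 in that of the pancreatic duct, between 2.57 and 3.58 in bile duct organoids and between 3.05 and 4.29 in pancreatic duct organoids. At least 26 of the 30 reached 1 FPKM in each library. Their median change was -0.09 in the bile duct and -0.31 in the pancreatic duct, beside -0.07 for all genes in either organ. Within 0.5 on the log2 scale lay 23 of the 30 in the bile duct and 19 in the pancreatic duct. The share of all genes within 0.5 was not computed.

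**Figure D2:**
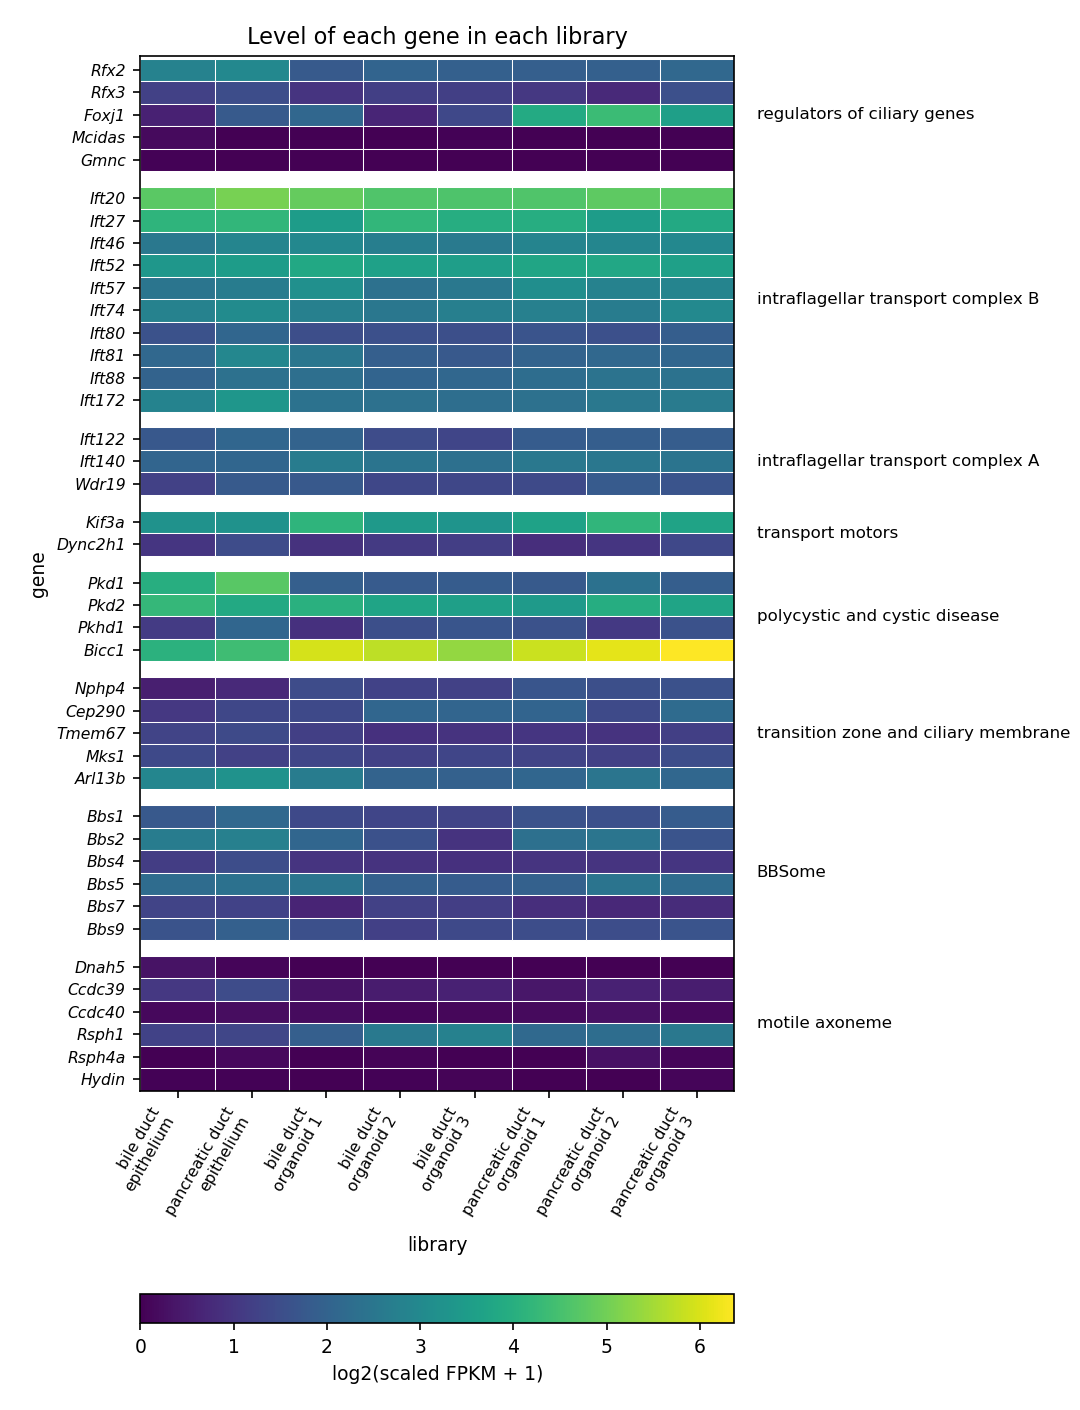
Levels of the 41 genes in the 8 libraries as log2(scaled FPKM + 1), with genes in rows grouped by role and libraries in columns. Bicc1, Ift20 and Pkd2 are among the rows with the highest levels, and most motile axoneme rows are near 0 in all 8 libraries.

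Complex B of intraflagellar transport, which carries cargo towards the ciliary tip, had all 10 members at 1.83 scaled FPKM or more in every library, and none was counted as changed in either organ. Ift20, which also works at the Golgi in sorting ciliary membrane proteins, was the most abundant, at 25.8 scaled FPKM in bile duct epithelium and 27.9, 23.6 and 23.3 in organoids 1, 2 and 3. In the pancreatic duct it was at 32.7 in epithelium and 23.5, 26.8 and 25.5 in organoids 1, 2 and 3. The organoid ranges of the organs overlap, and the 3 pancreatic duct organoids lie below their epithelium.

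Ift57 had the widest change upwards in the complex as a mean of both organs, from 4.58 scaled FPKM to 8.02, 4.08 and 4.89 in the bile duct (0.26 ± 0.43, log2 difference and SD over 3 organoids). In the pancreatic duct it went from 5.33 to 7.64, 6.13 and 6.39 (0.29 ± 0.15). Of the 6 organoids, bile duct organoid 2 alone lay below its epithelium, and both Ift57 changes were negative when scaled to epithelial reference genes (-1.07 and -2.60). Ift172, a large peripheral subunit needed for the turn-around at the tip, had the widest mean change downwards, from 6.23 to 4.25, 4.13 and 3.84 scaled FPKM (-0.51 ± 0.06) and from 9.14 to 4.14, 4.89 and 5.20 (-0.82 ± 0.14). All 6 organoids lay below the epithelium of their organ, yet short of 2-fold on the log2 scale used. The other 7 members (Ift27, Ift46, Ift52, Ift74, Ift80, Ift81 and Ift88) changed by between -0.87, for Ift81 in the pancreatic duct, and 0.30, for Ift52 in the bile duct. Ift81 was counted as lower in the pancreatic duct with median-of-ratios scaling and with a pseudocount of 0.1.

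Complex A, which returns material from the tip, lay between 1.37 and 5.22 scaled FPKM. Ift140, one of its core subunits, was at 3.13 in bile duct epithelium and 5.22, 4.48 and 3.99 in its organoids, and at 3.22 in pancreatic duct epithelium and 4.81, 4.78 and 4.44 in its organoids. The change was 0.43 in each organ, with all 6 organoids above the epithelium, although it was -0.80 and -2.32 when scaled to epithelial reference genes. Ift122, another core subunit, went from 2.29 to 2.99, 1.75 and 1.49 in the bile duct, so the organoids lay on both sides of the epithelium. In the pancreatic duct Ift122 went from 3.23 to 2.53, 2.65 and 2.59. Wdr19, the third member, changed by 0.26 and -0.14.

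Of the motor genes, Kif3a, a kinesin-2 subunit that drives transport to the tip, was at 8.26 scaled FPKM in bile duct epithelium and 16.8, 9.74 and 8.78 in its organoids. It was at 8.57 in pancreatic duct epithelium and 11.8, 16.9 and 11.9 in its organoids. All 6 organoids were above their epithelium (0.46 and 0.60), although both changes were negative when scaled to epithelial reference genes (-0.97 and -2.41). Dync2h1, the heavy chain of the returning dynein-2 motor, was low throughout, at 0.960 then 0.876, 1.12 and 1.22 in the bile duct and 1.74 then 0.786, 0.965 and 1.63 in the pancreatic duct.

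At the transition zone and ciliary membrane, none of the 5 genes was counted as changed. Their changes lay between -0.67 and 0.84 in the bile duct and between -0.99 and 0.88 in the pancreatic duct. Nphp4, a nephronophthisis gene of the transition zone, was at 0.457 scaled FPKM in bile duct epithelium and 1.76, 1.37 and 1.35 in organoids. In the pancreatic duct it was at 0.653 and then 2.23, 1.91 and 1.99. The FPKM ratio of organoid mean to epithelium was 3.27 and 3.13, while on the log2 scale the change was 0.78 and 0.88, since the levels are low. Scaled to epithelial reference genes, the Nphp4 change was 0.08 and -1.07, while with a pseudocount of 0.1 it passed 2-fold in both organs (1.52 and 1.51), and with FPKM as deposited in the pancreatic duct (1.01). Its epithelium values rest on 31 and 52 reads.

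Cep290, a transition zone protein whose loss gives nephronophthisis, went from 1.05 to 1.63, 3.24 and 3.13 in the bile duct and from 1.55 to 3.08, 1.70 and 3.61 in the pancreatic duct, with all 6 organoids above their epithelium. Its change of 0.84 and 0.57 became -0.09 and -1.83 when scaled to epithelial reference genes. In the bile duct it was counted as higher with FPKM as deposited (1.00), with a pseudocount of 0.1 and without bile duct organoid 1. Arl13b, a small GTPase of the ciliary membrane, showed the opposite order, from 6.54 to 5.28, 3.00 and 2.90 and from 8.29 to 3.19, 4.55 and 3.31. All 6 organoids were below, by -0.67 ± 0.39 and -0.99 ± 0.22, just short of 2-fold in the pancreatic duct and past it there with median-of-ratios scaling (-1.14). Tmem67, a membrane receptor of the transition zone that is mutated in Meckel syndrome and in congenital hepatic fibrosis, changed by -0.28 and -0.39. Mks1, another Meckel syndrome gene, changed by -0.11 and 0.12, with signs that depend on the scaling.

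All 6 BBSome genes had lower means in the organoids of both organs, with changes between -1.04 and -0.12 in the bile duct and between -0.56 and -0.17 in the pancreatic duct. Of the 6, 1 (Bbs2) was counted as lower in the bile duct and 0 in the pancreatic duct. The median change of all genes was -0.07 in either organ. Each of the 6 kept its sign under the 4 other scalings except Bbs5, which was at 0.09 and 0.07 with FPKM as deposited. Under the scalings other than FPKM as deposited, the median of all genes was below 0 too. With FPKM as deposited it was 0.18 and 0.21. There Bbs4, Bbs7 and Bbs9 were at -0.06, -0.10 and -0.05 in the bile duct, and Bbs1 and Bbs2 at -0.23 and -0.83. The BBSome is a coat that carries receptors out of the cilium, and its loss gives Bardet-Biedl syndrome. Bbs5 had the highest mean over the 8 libraries, just above Bbs2, and was at 3.65 and then 4.46, 2.83 and 2.58 in the bile duct, and at 4.22 and then 2.87, 4.47 and 3.58 in the pancreatic duct. Bbs2 had the widest change, from 5.22 to 3.21, 1.97 and 0.923 in the bile duct (-1.04 ± 0.57) and from 5.75 to 3.99, 4.60 and 2.12 in the pancreatic duct (-0.56 ± 0.45). Its level in bile duct organoid 3 was the lowest of all, on 61 reads, and no organoid reached its epithelium. Without that organoid, 3 members rather than 4 were counted in the bile duct, and Bbs2 was not counted there with FPKM as deposited either (-0.83).

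Of the 4 cystic disease genes, Bicc1 was higher and Pkd1 lower in the organoids of both organs, apart from Bicc1 in the pancreatic duct when scaled to epithelial reference genes. Bicc1 (chromosome 10, 70922832 to 71159700, minus strand) encodes an RNA-binding protein whose loss gives cystic kidneys. It was at 15.9 scaled FPKM in bile duct epithelium and at 61.6, 52.4 and 39.1 in bile duct organoids. It was at 20.0 in pancreatic duct epithelium and at 57.0, 68.3 and 81.7 in pancreatic duct organoids. Every organoid was above both epithelia, and the ranges of the organoid groups overlap. The organoid mean was 3.22 and 3.46 times the epithelium, or 1.63 ± 0.32 and 1.74 ± 0.26 on the log2 scale, which became 0.14 and -1.33 when scaled to epithelial reference genes.

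Set against the summed level of the 10 complex B genes in the same library, Bicc1 was at a ratio of 0.193 and 0.194 in bile and pancreatic duct epithelium. In the organoids that ratio was 0.632 ± 0.101 (SD, n = 3) and 0.822 ± 0.136 (SD, n = 3). The ratio needs no scaling between libraries, and it was 3.27 and 4.23 times higher in organoids.

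Pkd1 (chromosome 17, 24549950 to 24596514, plus strand) encodes polycystin-1, the large receptor-like protein mutated in most autosomal dominant polycystic kidney disease. It was at 14.8 scaled FPKM in bile duct epithelium and at 2.76, 2.50 and 2.56 in bile duct organoids. It was at 25.1 in pancreatic duct epithelium and at 2.46, 4.18 and 2.65 in pancreatic duct organoids. The 6 organoids lay in a narrow band far below both epithelia. The epithelium was 5.70 and 8.09 times the organoid mean (-2.14 ± 0.05 and -2.67 ± 0.32 on the log2 scale). Pkd1 was lower under each of the 4 other scalings as well. Scaled to epithelial reference genes its change was -3.43 and -5.65, where the medians of all genes were themselves -1.30 and -2.57.

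Pkd2, which encodes polycystin-2, the channel partner of polycystin-1, did not share this difference under the scaling used. It was at 18.0 scaled FPKM and then 15.6, 12.2 and 10.8 in the bile duct, and at 13.4 and then 9.98, 14.5 and 12.2 in the pancreatic duct. Its change was -0.46 and -0.13, and pancreatic duct organoids lay on both sides of their epithelium. Scaled to epithelial reference genes, the Pkd2 change was -1.91 and -3.16, counted as lower in both organs. With FPKM as deposited it was -0.21 and 0.15. The ratio of Pkd1 to Pkd2 within a library was 0.824 in the epithelium of the bile duct and 1.87 in that of the pancreatic duct. It was 0.206 ± 0.029 (SD, n = 3) in bile duct organoids and 0.251 ± 0.036 (SD, n = 3) in pancreatic duct organoids. Every organoid had a lower ratio than either epithelium. A share of 3.98% of the exon bases of Pkd1 overlaps exons of Tsc2 on the other strand, and the library kit named in the labels does not mark strand.

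Pkhd1, the gene of autosomal recessive polycystic kidney disease, which encodes fibrocystin, was at 1.15 scaled FPKM in bile duct epithelium, on 185 reads, with a 95% counting interval of 0.993 to 1.33. Its bile duct organoids were at 0.856, 1.88 and 2.20. In the pancreatic duct it was at 3.21 in epithelium, on 605 reads, with an interval of 2.96 to 3.47, and at 2.06, 1.09 and 2.05 in organoids. The bile duct organoids lay on both sides of their epithelium and the pancreatic duct organoids all lay below theirs (0.30 and -0.62, which became -0.58 and -3.23 when scaled to epithelial reference genes). These intervals are exact Poisson intervals and cover counting error only.

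**Figure D3:**
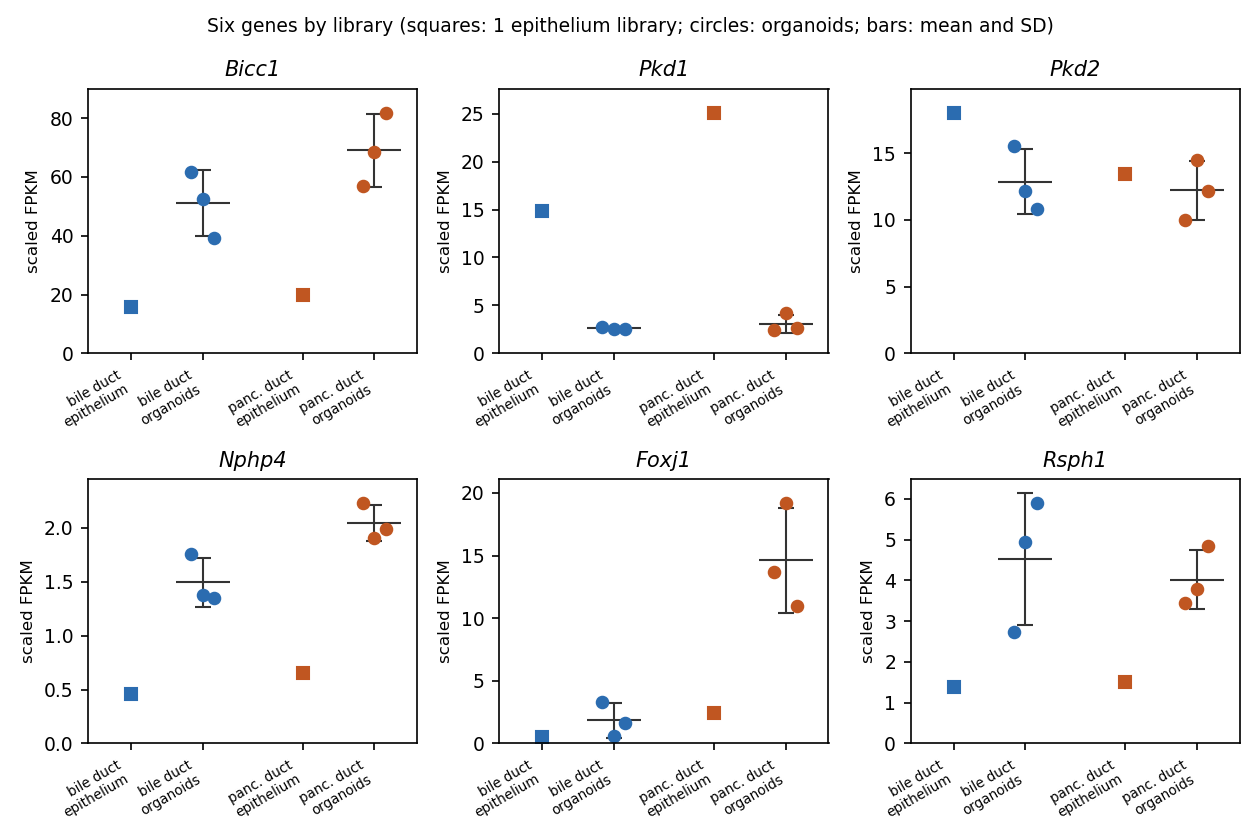
Scaled FPKM of Bicc1, Pkd1, Pkd2, Nphp4, Foxj1 and Rsph1 in each library, with squares for the single epithelium libraries, circles for organoids, and bars for the mean and SD of 3 organoids. Pkd1 drops from 14.8 and 25.1 to at most 4.18 while Pkd2 stays between 9.98 and 18.0. Foxj1 is at 11.0 or more only in the pancreatic duct organoids. Scaled to epithelial reference genes, Bicc1, Nphp4, Foxj1 and Rsph1 change sign in the pancreatic duct, and Pkd2 changes by -1.91 and -3.16.

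Among the regulators, Foxj1 (chromosome 11, 116330704 to 116335399, minus strand), the forkhead factor that drives motile cilium genes, had the widest difference between organoid groups. It was at 0.510 scaled FPKM in bile duct epithelium and at 3.31, 0.569 and 1.62 in bile duct organoids. It was at 2.43 in pancreatic duct epithelium and at 13.7, 19.2 and 11.0 in pancreatic duct organoids. All 3 pancreatic duct organoids were above every other library, and the lowest bile duct organoid was near its epithelium. The lowest values rest on 15 reads in bile duct epithelium and 32 in bile duct organoid 2, and the highest on 903 in pancreatic duct organoid 2. The change from epithelium was 0.91 ± 0.73 in the bile duct and 2.19 ± 0.38 in the pancreatic duct, which became 0.12 and -0.58 when scaled to epithelial reference genes. Relative to summed complex B in the same library, Foxj1 went from a ratio of 0.00622 to 0.0382, 0.00725 and 0.0215 in the bile duct and from 0.0237 to 0.164, 0.232 and 0.128 in the pancreatic duct. Without bile duct organoid 1 the log2 change in the bile duct was 0.48. It passed 2-fold there with FPKM as deposited (1.00), with a pseudocount of 0.1 (1.66) and without bile duct organoid 2 (1.19).

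The earlier regulators of the multiciliated programme were not detected in those organoids. Mcidas, a coactivator that starts the programme, had 0 reads in all 3 pancreatic duct organoids, where 3 reads would correspond to 0.0791, 0.0703 and 0.0555 scaled FPKM in organoids 1, 2 and 3. Its only reads were 3 in bile duct epithelium and 1 in bile duct organoid 3. Gmnc, which acts before Mcidas, was listed at 0 in 7 libraries and at 0.0218 scaled FPKM in bile duct epithelium.

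Rfx2 and Rfx3 encode X-box binding factors. Rfx2 was at 6.12 scaled FPKM in bile duct epithelium and 2.45, 3.05 and 2.78 in its organoids, and at 6.81 in pancreatic duct epithelium and 2.77, 2.81 and 3.37 in its organoids. All 6 organoids were below the epithelia (-0.92 ± 0.12 and -0.97 ± 0.12), just short of the 2-fold mark, and past it in both organs with median-of-ratios scaling (-1.09 and -1.12). Rfx3 was at 1.36 and then 0.953, 1.29 and 1.28 in the bile duct and at 1.79 and then 1.04, 0.672 and 1.92 in the pancreatic duct, with 1 organoid above its epithelium.

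Of the 6 motile axoneme genes, 4 (Dnah5, Ccdc40, Rsph4a and Hydin) were at no more than 0.24 scaled FPKM in any library. Dnah5, an outer arm dynein heavy chain, had 42 and 12 reads in bile and pancreatic duct epithelium and 0 to 2 reads in each organoid. The 6 genes had a median change of -0.00 in the bile duct and -0.02 in the pancreatic duct, near 0 because most were barely detected. These 4 genes were also at no more than 0.229 scaled FPKM in the pancreatic duct organoids, where Foxj1 was highest.

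Rsph1 and Ccdc39 were the measurable axoneme genes. Rsph1, which encodes a radial spoke head protein, was at 1.38 scaled FPKM in bile duct epithelium and 2.74, 4.93 and 5.90 in its organoids, and at 1.50 in pancreatic duct epithelium and 3.45, 3.78 and 4.83 in its organoids. Every organoid was above both epithelia (1.22 ± 0.46 and 1.01 ± 0.20), which became 0.18 and -1.42 when scaled to epithelial reference genes. The pancreatic change fell short of 2-fold with median-of-ratios scaling (0.89), with scaling over genes at 1 FPKM or more in both libraries (0.90) and without pancreatic duct organoid 3 (0.88). Relative to summed complex B in the same library, Rsph1 was 3.42 and 3.28 times higher in organoids than in epithelium. The organoid groups overlap in Rsph1, with a difference of 0.11 ± 0.25 (SE, bile minus pancreatic duct). Ccdc39, a ruler protein of the motile axoneme, went from 1.05 to 0.248, 0.408 and 0.498 and from 1.74 to 0.303, 0.502 and 0.419, with all 6 organoids below. Its change of -0.57 and -0.96 passed 2-fold in both organs with a pseudocount of 0.1 (-1.25 and -1.86) or when scaled to epithelial reference genes. It also did so in the pancreatic duct with median-of-ratios scaling (-1.06), with scaling over genes at 1 FPKM or more in both libraries (-1.05) and without pancreatic duct organoid 2 (-1.01). Exons of Ttc14 on the other strand cover 16.9% of the exon bases of Ccdc39.

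Other genes of these pathways were taken from 8 lists, 139 genes together, of which 13 were higher and 11 lower of 103 measurable in the bile duct and 14 higher and 11 lower of 102 in the pancreatic duct. The shares of all genes are those given above. Of the further transport genes, 2 of 16 were higher in each organ and none was lower. Wdr34, a dynein-2 intermediate chain, went from 4.12 scaled FPKM to 13.4, 12.2 and 11.1 in the bile duct and from 3.99 to 15.6, 16.7 and 15.5 in the pancreatic duct, although the changes of 1.37 and 1.76 became 0.03 and -1.11 when scaled to epithelial reference genes. On that scale none of this list was higher, and 8 and 16 were lower. Of the further transition zone and nephronophthisis genes, 1 of 19 was higher (Nek8) and 1 lower in the bile duct, and 1 of 20 was lower in the pancreatic duct. The lower gene was Cc2d2a in both organs, from 5.13 to 1.80, 1.30 and 1.48 and from 5.95 to 1.07, 1.89 and 1.51. Of 7 other BBSome and chaperonin genes, none was counted in the bile duct and 1 (Ttc8) was lower in the pancreatic duct.

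Of 12 other cystic liver and kidney disease genes, 3 were higher in the bile duct and 5 in the pancreatic duct, and none was lower. Lrp5, a Wnt co-receptor, went from 17.3 to 37.6, 66.1 and 53.5 scaled FPKM in the bile duct and from 16.4 to 49.3, 50.6 and 54.5 in the pancreatic duct. Alg8, an enzyme of N-glycan assembly, was the other gene counted in both organs, with changes of 1.09 and 1.36. The pancreatic change of Lrp5 was -1.49 when scaled to epithelial reference genes, and those of Alg8 were -0.22 and -1.43. Scaled to epithelial reference genes, none of the 12 was higher, and 5 and 12 were lower.

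Ciliary signalling and membrane delivery genes went the other way, with 7 of 18 lower in the bile duct, 7 of 17 in the pancreatic duct and none higher. Scaled to epithelial reference genes, 17 and 20 of the list were lower. With FPKM as deposited, 6 and 7 were lower and 1 was higher in each organ. Gli1, a transcriptional target and effector of Hedgehog signalling, was at 3.55 and 3.78 scaled FPKM in bile and pancreatic duct epithelium, on 199 and 249 reads, and had at most 3 reads in any organoid. Adcy5, an adenylyl cyclase, was at 13.2 and 40.1 in the epithelia and at most 0.0930 in organoids. P2ry12, a purine receptor, was at 3.19 and 5.42 and had at most 1 read in an organoid. The summed fibroblast and smooth muscle markers were at most 2.50 and 1.65 scaled FPKM in the organoids, and the 7 immune markers went from 1176 and 811 to between 2.63 and 13.1. Their part in these differences was not tested.

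Genes that control assembly and disassembly of the cilium had 6 of 16 higher in each organ and none lower, and the 6 were the same genes (Cep164, Kif24, Aurka, Plk1, Nek2 and Rab3ip). Aurka, a mitotic kinase that also acts in resorption of the cilium, went from 3.10 to 19.3, 29.5 and 34.3 scaled FPKM in the bile duct and from 1.26 to 28.0, 14.4 and 25.5 in the pancreatic duct. Plk1, another mitotic kinase, went from 14.2 to 25.9, 41.8 and 47.5 and from 1.03 to 37.5, 22.1 and 43.6, although its bile duct change was -0.04 when scaled to epithelial reference genes. The lowest organoid of each organ for both kinases, bile duct organoid 1 and pancreatic duct organoid 2, was also the lowest for 9 of 10 markers of proliferating cells, all 10 of which were counted as higher in both organs. Whether proliferation accounts for these values was not tested. Scaled to epithelial reference genes, 2 genes of this list were higher and 5 lower in the bile duct, and 1 higher and 11 lower in the pancreatic duct.

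Of 32 other motile axoneme genes found, only 8 were measurable in each organ, 3 and 2 were lower and none was higher. Tppp3, a tubulin-binding protein of ciliated cells that other cell types also express, was at 89.6 and 96.8 scaled FPKM in the epithelia and at most 0.754 in the organoids. Of the multiciliated cell list, 1 gene was higher in each organ, of 7 and 6 measurable, and none was lower. That gene was Plk4, a kinase of centriole duplication in all dividing cells, with changes of 1.64 and 1.21 that became 0.54 and -1.30 when scaled to epithelial reference genes. Among 423 other genes annotated to a cilium, 24 were higher and 42 lower of 245 in the bile duct and 25 higher and 37 lower of 246 in the pancreatic duct.

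**Figure D4:**
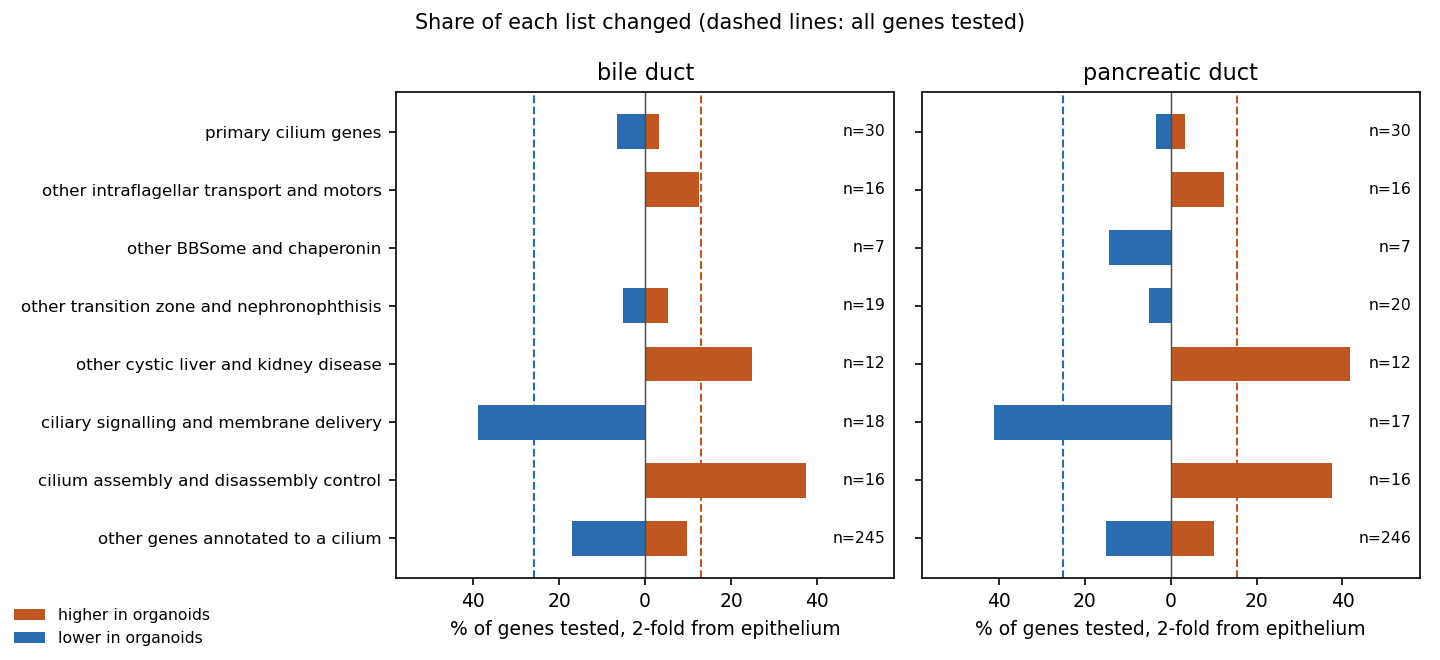
Share of each list that was at least 2-fold higher (right) or lower (left) in organoids than in the epithelium of the same organ, in % of the genes measurable, with dashed lines for all genes. The primary cilium genes lie inside both lines (1 higher and 2 lower of 30 in the bile duct, 1 and 1 in the pancreatic duct). Signalling genes extend past the line for lower, and other cystic disease genes and assembly and disassembly genes past that for higher. Scaled to epithelial reference genes, the higher shares shrink to 2 genes at most in a list. For the other genes annotated to a cilium this was not computed.

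Between the epithelia, 1 of 34 measurable genes differed by 2-fold, against 13.7% of 15536 genes, and it was lower in the bile duct, as were 4.69% of all genes. That gene was Foxj1, 4.76 times higher in pancreatic duct epithelium (-1.18, bile minus pancreatic duct). Of the 30 primary cilium genes, 27 were lower in bile duct epithelium, with 1 library a side. The share of all genes lower there was not computed. The median over all 30 was -0.31 beside -0.04 for all genes, and Pkhd1 came nearest to 2-fold among them, at -0.97. Scaled to epithelial reference genes, 35 members were lower in bile duct epithelium, beside 81.5% of all genes. The sum of duct markers, 3357 and 810 in bile and pancreatic duct, differed too, and its part in these differences was not tested.

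Between the organoid groups, both with 3 libraries, limma's moderated test over 12094 genes passed 0 of them at the adjusted threshold of 0.05 (0% of all genes), and so none of the 32 members measured. At an unadjusted p under 0.05 it had 307 genes (2.54%), 1 of them a member. That member was Foxj1, 7.97 times higher in pancreatic duct organoids, with a log2 difference of -2.57 ± 0.40 (SE, bile minus pancreatic duct) and an adjusted p of 1.00 by limma with Benjamini-Hochberg adjustment. All 3 pancreatic duct organoids were above all 3 bile duct organoids for 4 members (Foxj1, Ift80, Nphp4 and Bbs1), against 3.52% of all genes. None had the bile duct organoids above, against 3.22%, and groups without overlap made up 6.74% of all genes.

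The other members differed less. Of the 32, 28 lay within 0.3 of 0 on the log2 scale, with SE from 0.12 to 0.40 over the 32. The share of all genes within 0.3 was not computed. Of the 32, 28 were also on the pancreatic side of 0, against 47.8% of all genes, with a median of -0.13 beside 0.01 for all genes. Bbs1 was at -0.33 ± 0.14, Nphp4 at -0.29 ± 0.14, Bicc1 at -0.43 ± 0.21, Bbs2 at -0.62 ± 0.36 and Pkd1 at -0.16 ± 0.18 (SE). An adjusted p of 1.00 does not show that the groups were alike for these genes.

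**Figure D5:**
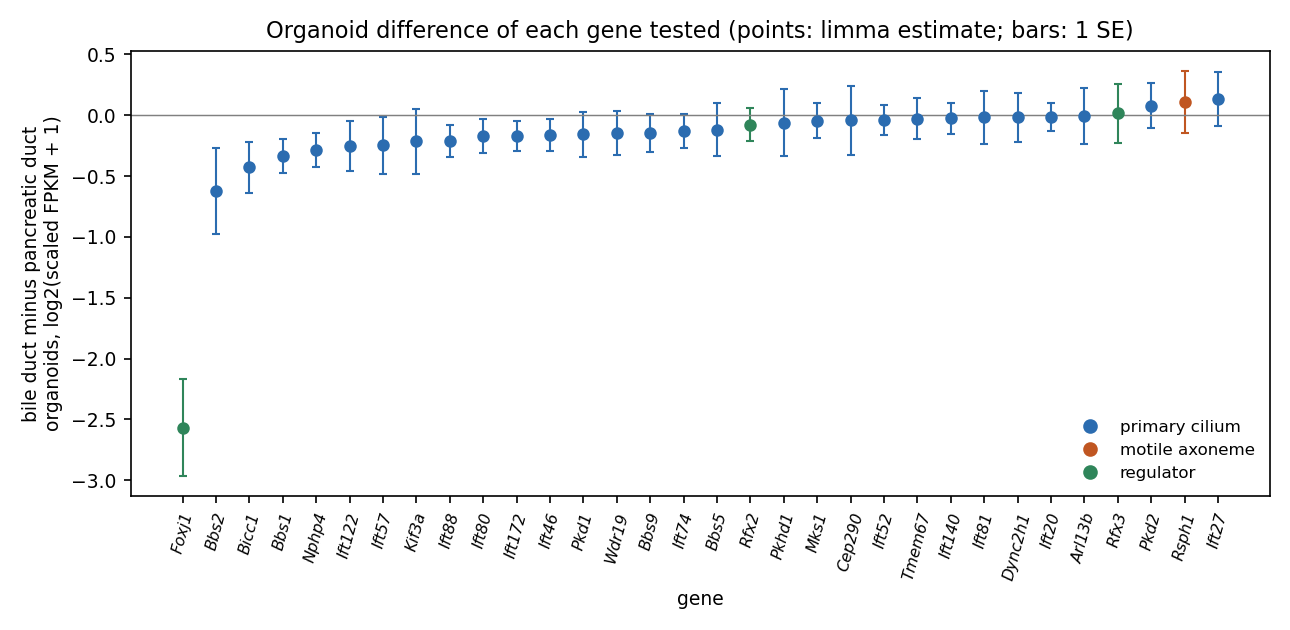
Log2 difference between bile duct and pancreatic duct organoids for the 32 members measured, with bars for the SE of limma's fit over 3 organoids a group. Foxj1 lies at -2.57 and the others between -0.62 and 0.13, with 27 of these 31 below 0.

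Some spread among organoids was shared between organs. Bile duct organoid 1 and pancreatic duct organoid 2 were the highest 2 of the 6 organoids for 10 of the 32 members measured (31.2%), Kif3a among them, against 20.1% of all genes. They were the lowest 2 for 4 (12.5%), against 20.9% of all genes. For Cep290 and Pkhd1 these 2 organoids were the lowest of the 6, at 1.63 and 1.70 and at 0.856 and 1.09 scaled FPKM.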

How the data were processed

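Polyadenylated RNA of 8 mouse libraries was made into libraries with the NEBNext Ultra kit and sequenced (per the labels' protocols). The authors deposited 1 table of FPKM values for 31228 genes, and 0 of its per-sample columns were left aside. The unit was read from the values. The submitters' processing notes name Bowtie2 2.2.3, HISAT2 2.1.0, TopHat2 and HTSeq 0.6.0 with no role. Strand use in counting and filters are not given in the sources used here.

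Gene coordinates are those of the table, and 28617 of 31141 genes found in GENCODE M21 (build GRCm38) had the same ones there. FPKM times GENCODE M21 exon length fell on whole multiples of 1 step per library, within 0.05 of a read, for 28309 genes (90.7%) and 34 of the 41 members. Read numbers come from this, and no count test was run. FPKM was scaled by a trimmed mean of log ratios (trims of 30% and 5%), over 8 libraries or, between organoids, over 6, and log2(FPKM + 1) was used. Genes at 1 FPKM or more in an epithelium or organoid mean were compared without a test. Genes at 1 FPKM or more in at least 3 organoids were tested with limma 3.58.1 (R 4.3.3) with an intensity trend and Benjamini-Hochberg adjustment at 0.05, after a trial on simulated data. Python 3.11.15, pandas 2.3.3 and numpy 2.4.6 were used.

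The members, gene lists and tests were chosen with earlier results of these data known. Values per library are given for every regulator and cystic disease member and, in each other role, for the most abundant member and those with the widest change each way. Of the 8 further lists, up to 3 genes each way are named among those 2-fold apart in both organs with at least 3 scaled FPKM on the higher side. Genes outside this rule are named where a count was small or a role is described, chosen after their values were seen. Alternatives covered scaling, pseudocount, minimum, replicate block, trend and leaving out each organoid.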

Additional observations from a re-analysis of the deposited data

Results flagged for a closer look

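Mks1, a transition zone gene, had changes of opposite sign in the 2 organs under the scaling used. It changed by -0.11 from bile duct epithelium to its organoids, all 3 of which lay below it (1.63 scaled FPKM, then 1.51, 1.35 and 1.47), and by 0.12 from pancreatic duct epithelium to its organoids, all 3 of which lay above it (1.33, then 1.44, 1.36 and 1.79). The epithelium values rest on 74 and 71 reads, with 95% counting intervals of 1.28 to 2.05 and 1.04 to 1.68 scaled FPKM. Every organoid value except 1.79 lay inside the interval of its organ's epithelium. No test was made of this contrast between organs (the difference was not tested). With FPKM as deposited both changes were positive (0.06 and 0.29), and scaled to epithelial reference genes both were negative (-1.07 and -2.15).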

How the results depend on the processing

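Scaling decided most of what changed. With FPKM as deposited, the median change of primary cilium genes was 0.10 in the bile duct and -0.043 in the pancreatic duct, and that of motile axoneme genes in the bile duct was 0.014. With median-of-ratios scaling these were -0.24, -0.44 and -0.013, and 7 members were counted in the pancreatic duct. With scaling over genes at 1 FPKM or more in both libraries, an alternative added after seeing the data, they were -0.21, -0.42 and -0.011. Scaled to epithelial reference genes, 25 members were counted in the bile duct, 34 in the pancreatic duct and 35 between the epithelia. The primary medians were then -1.12 and -2.90 and the motile medians -0.10 and -0.75, and the pancreatic changes of Foxj1, Bicc1 and Rsph1 reversed to -0.58, -1.33 and -1.42. With a pseudocount of 0.1, 9 members were counted in each organ and 2 between the epithelia, and the motile medians were 0.011 and -0.094. With a minimum of 10 FPKM, 2 were counted in the bile duct and 0 between the epithelia. The cause of these shifts was not tested beyond the scale itself.

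Leaving out each organoid gave 3 to 5 members in the bile duct and 4 to 6 in the pancreatic duct. Primary medians ranged from -0.11 to -0.0035 in the bile duct and from -0.35 to -0.24 in the pancreatic duct, and motile medians from -0.0051 to 0.0019 and from -0.071 to -0.0056. Of 352 recomputed changes of the 22 members named by the rule, 16 were exactly 0 (Mcidas and Gmnc in the pancreatic duct) and 314 of the other 336 kept their sign. Between organoid groups limma called 0 members under each alternative run, among which scaling to epithelial reference genes was not. Without bile duct organoid 1, 1017 genes and 7 members had an unadjusted p under 0.05, and without pancreatic duct organoid 3, 11 genes passed the adjusted threshold. With the replicate block, limma called 0 members and 0 genes, with 2 members and 288 genes at an unadjusted p under 0.05. Deviations of same-numbered organoids from their group means correlated at -0.10, -0.44 and 0.48. Those of differently numbered organoids correlated at -0.60 to 0.65, the highest for bile duct organoid 1 with pancreatic duct organoid 2. With 3 organoids a group, these values cannot show whether the numbers pair them. Depth limits Mcidas, Gmnc and the 4 barely detected motile genes, and Foxj1 in bile duct epithelium rests on 15 reads.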
